A study of Mus musculus with 20 samples.

Results

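RNA of muscle endothelial cells was examined for one question, whether loss of the transcription factor Atf4 acts differently on the endothelium of an oxidative and of a glycolytic muscle. All 20 libraries of the series enter, as 4 groups of 5 given by their titles, so 20 of 20 libraries were used. The quantity of interest is the interaction, the log2 change upon deletion in oxidative muscle minus that in glycolytic muscle. A negative value means that expression ended lower, relative to wild type, in oxidative than in glycolytic muscle.

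Endothelial cells bearing CD31 and lacking CD45 were sorted from C57BL/6N mice, from the soleus for the oxidative groups and from the extensor digitorum longus for the glycolytic groups. Both genotypes received 1 mg of tamoxifen a day over 5 days at 8 to 10 weeks of age, then at least 7 days without it. Deletion was restricted to endothelial cells (Atf4-/-), and the wild type animals were littermates without Cre, so tamoxifen is shared by all 4 groups while Cre is present in the deleted groups alone. The Cre driver, the number of animals behind a library and what the replicate numbers stand for are not given in the sources used here. The p-values therefore measure the spread between libraries, which may be technical.

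Atf4 is the main transcription factor of the integrated stress response. When kinases phosphorylate the initiation factor eIF2alpha, for instance upon amino acid shortage, unfolded protein or lack of heme, general translation falls while Atf4 protein is made. Atf4 then pairs with C/EBP and other bZIP proteins on composite elements in the DNA and turns on amino acid synthesis, amino acid import, tRNA charging and redox genes. In endothelium this programme has been tied to amino acid supply during vessel growth.

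Library totals ranged from 8013223 to 21720127 estimated counts, and levels are given as CPM, the share of a TMM-scaled library given as counts per 1000000. Transcripts of the mitochondrial genome took 11.33 to 14.16% of the counts in oxidative wild type, 7.36 to 10.56% in oxidative Atf4-/-, 5.73 to 6.14% in glycolytic wild type and 5.49 to 5.65% in glycolytic Atf4-/-. The biological coefficient of variation was 13.4% in oxidative Atf4-/-, 10% in oxidative wild type, 8.14% in glycolytic wild type and 6.86% in glycolytic Atf4-/-. Sex-specific RNA differed between the genotypes: 4 Y-linked genes summed to 92.1 to 102 and 107 to 118 CPM in glycolytic and oxidative wild type, but to at most 1.55 CPM in glycolytic Atf4-/-. Oxidative Atf4-/- libraries 1, 2 and 3 carried 64.6, 65.6 and 32.2 CPM of Y-linked RNA together with X-inactivation transcripts, whereas libraries 4 and 5 carried 0.932 and 1.10 CPM. Library 3 lay between the others of its group. Its summed fibroblast markers were also intermediate, at 351.7 CPM against 107.2 and 109.2 CPM in libraries 1 and 2 and 670.3 and 662.4 CPM in libraries 4 and 5. Genotype and sex cannot be told apart here, and the interaction was computed again with libraries 1, 2 and 3 or libraries 4 and 5 as the only oxidative Atf4-/- samples. CD31 (Pecam1) stood at 1790 CPM, 1433 CPM, 1583 CPM and 1861 CPM in glycolytic wild type, glycolytic Atf4-/-, oxidative wild type and oxidative Atf4-/-, so the endothelial marker used in the sort was high in each group. Of the 99 genes named here 50 overlap another annotated gene, and the authors' use of strand is not given. Values of pairs such as Ppp1r15a with Tulp2, Sqstm1 with Mrnip, Shmt2 with Ndufa4l2, Fn1 with Apol7d, Tagln with Pcsk7 and Igtp with Irgm2 are therefore uncertain where they share sequence.

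The DNA element through which Atf4 acts with C/EBP partners was searched, as the letters TTNCATCA or TGATGNAA on either strand, in RefSeq promoters of GRCm38.p6, windows of 300 bases from 250 before to 50 after a gene's start. It was present in 3.97% of all 32851 promoters. Counted per gene, it was present in 4.51% of all 27025 genes with a promoter entry and in 2.73% of the 10245 tested genes matched by symbol. Among the lists described below it was found for 7 of 19 stress response regulators, 3 of 15 amino acid and one-carbon enzymes, 2 of 10 amino acid transporters and 5 of 12 cytosolic tRNA synthetases that have a promoter entry. Genes called lower in the interaction held it in 4.35% and genes called higher in 2.79%. A match is a description of the letters and not evidence of binding. Of 20 stress response genes named below, 16 have a promoter entry and the 4 printed here hold a match, which is why they are shown. Their expression is described further on. They are written 5′ to 3′ along the gene's strand with the element in capitals, and span chr6:7693160-7693459 on the minus strand, chr6:55037751-55038050 on the plus strand, chr1:191183284-191183583 on the minus strand and chr3:50443564-50443863 on the minus strand.
Asns: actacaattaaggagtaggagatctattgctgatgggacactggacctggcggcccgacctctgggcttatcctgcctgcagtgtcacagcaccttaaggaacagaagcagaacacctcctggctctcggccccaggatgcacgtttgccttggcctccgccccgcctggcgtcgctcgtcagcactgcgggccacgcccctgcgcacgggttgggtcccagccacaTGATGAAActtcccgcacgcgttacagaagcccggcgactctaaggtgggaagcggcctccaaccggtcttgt
Gars: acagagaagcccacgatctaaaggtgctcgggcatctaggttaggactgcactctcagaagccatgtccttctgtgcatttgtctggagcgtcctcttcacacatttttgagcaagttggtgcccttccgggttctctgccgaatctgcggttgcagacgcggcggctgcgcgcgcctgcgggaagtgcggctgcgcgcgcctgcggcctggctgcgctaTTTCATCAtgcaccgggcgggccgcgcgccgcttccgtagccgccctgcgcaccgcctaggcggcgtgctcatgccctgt
Atf3: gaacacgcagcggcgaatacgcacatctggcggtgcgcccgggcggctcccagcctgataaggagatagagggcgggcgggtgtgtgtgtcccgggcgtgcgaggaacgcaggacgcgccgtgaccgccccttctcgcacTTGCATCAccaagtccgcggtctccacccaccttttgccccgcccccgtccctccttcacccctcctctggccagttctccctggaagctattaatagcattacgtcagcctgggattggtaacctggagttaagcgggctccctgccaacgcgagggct
Slc7a11: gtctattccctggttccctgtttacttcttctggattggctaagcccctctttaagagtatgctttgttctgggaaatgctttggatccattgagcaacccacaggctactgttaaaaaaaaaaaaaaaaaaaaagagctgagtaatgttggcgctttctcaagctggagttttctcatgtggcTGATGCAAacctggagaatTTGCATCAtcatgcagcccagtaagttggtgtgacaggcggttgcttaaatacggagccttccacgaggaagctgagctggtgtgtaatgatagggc
The element began 23 bases before the annotated start in Asns, 30 in Gars and 110 in Atf3, and Slc7a11 held it at 2 places in opposite orientation.

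The effect of Atf4 deletion differed between the muscles in 3163 of 13971 genes tested (22.6%, edgeR's quasi-likelihood test, Benjamini-Hochberg adjusted p below 0.05). Of these 1417 (10.1%) had a positive and 1746 (12.5%) a negative interaction. At a size of at least 2-fold the split was 111 positive against 469 negative. The genotype effect itself was called for 4470 genes (32%) in oxidative muscle, with 2035 (14.6%) higher and 2435 (17.4%) lower upon deletion. In glycolytic muscle it was called for 4054 genes (29%), with 1939 (13.9%) higher and 2115 (15.1%) lower. Over all tested genes the median log2 value was 0.01 for the interaction, 0.02 for the effect in oxidative and 0.004 for that in glycolytic muscle. Across genes the 2 genotype effects, which share no libraries, had a Pearson r of 0.393, given as a description because genes are not independent.

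The called genes were sorted by the direction of both genotype effects. A call in the interaction favours opposite signs, so these counts describe the called genes alone. Deletion lowered 323 of them (10.2%) in oxidative muscle while raising them in glycolytic muscle, and did the reverse in 189 (5.98%). Classes called in a single muscle were larger. In oxidative muscle 654 (20.7%) fell and 543 (17.2%) rose with no call in glycolytic muscle. In glycolytic muscle 485 (15.3%) fell and 453 (14.3%) rose with no call in oxidative muscle. Expression fell in both muscles for 165 genes with the larger fall in oxidative and 65 with the larger fall in glycolytic muscle, and rose in both for 52 and 62 in the same order. For the other 172 neither effect alone was called. With oxidative Atf4-/- libraries 4 and 5 alone, 2422 of the 3163 genes remained called and 5 changed sign. With an offset for effective transcript length 2373 remained called and 13 changed sign. With oxidative Atf4-/- libraries 1, 2 and 3 alone 2755 remained called, none changed sign, and the genes that rose in oxidative and fell in glycolytic muscle numbered 285.

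**Figure D1:**
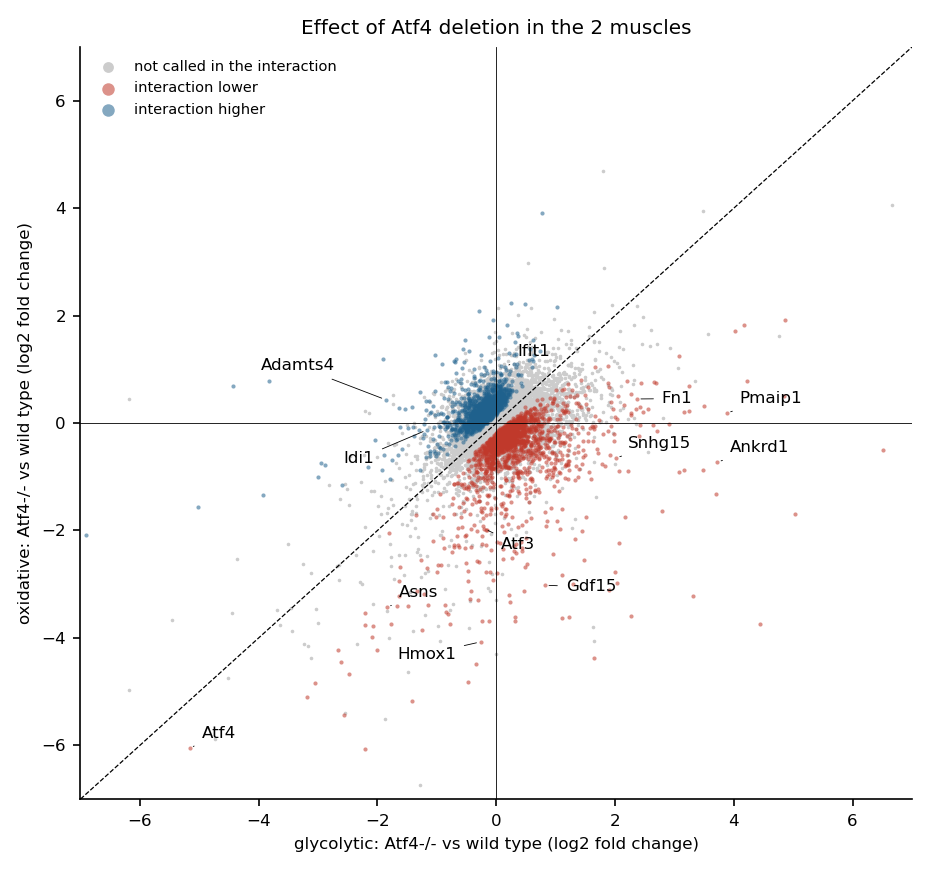
Log2 fold change upon Atf4 deletion in glycolytic muscle (x axis) against that in oxidative muscle (y axis) for each tested gene, with 9 genes outside the axes. Red marks genes called with a negative and blue with a positive interaction, the dashed line marks equal effects, and the red points lie below it, among them Atf4, Asns and Hmox1 low in the plot and Ankrd1 and Pmaip1 far to the right.

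Atf4 (ENSMUSG00000042406.8, chromosome 15, 80255184 to 80257541, plus strand, GRCm38) was nearly absent after deletion in both muscles. Its libraries held 265, 259.5, 281, 243 and 261 CPM in glycolytic wild type and 552, 553, 542, 589 and 535 CPM in oxidative wild type. After deletion they held 8.44, 7.86, 5.79, 7.19 and 7.61 CPM in glycolytic and 8.70, 8.15, 8.00, 7.97 and 8.64 CPM in oxidative muscle. The 10 deleted libraries lay far below all wild type libraries, and the wild type groups did not overlap each other. The log2 change was -5.16 ± 0.0674 in glycolytic and -6.06 ± 0.0654 in oxidative muscle (log2, SE, n = 5 per group), an interaction of -0.89 ± 0.0981 (edgeR adjusted p = 1.2e-07).

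Atf3 (ENSMUSG00000026628.13, chromosome 1, 191170296 to 191218039, minus strand), a stress-induced bZIP factor that Atf4 is known to induce, did not follow that pattern. Its levels were 78.8, 74.5, 76.7, 79.4 and 73.5 CPM in glycolytic wild type and 68.5, 61.4, 68.7, 68.05 and 66.1 CPM in glycolytic Atf4-/-. They were 373, 381, 266, 367 and 249 CPM in oxidative wild type and 78.5, 79.2, 85.2, 83.6 and 91.02 CPM in oxidative Atf4-/-. Oxidative wild type alone stood high, with its 2 lowest libraries still above every other library. The log2 change of -1.97 ± 0.0895 in oxidative muscle was called, the value of -0.20 ± 0.0921 in glycolytic muscle was not, and the interaction was -1.76 ± 0.128 (edgeR adjusted p = 7.6e-11).

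Regulators and effectors of the stress response lost more in oxidative muscle. Of 21 tested members 15 had a negative and 1 a positive interaction, with a list median of -1.31. In oxidative muscle 18 fell and 1 rose. In glycolytic muscle 9 fell and 3 rose. Gdf15 (ENSMUSG00000038508.7, chromosome 8, 70629393 to 70632456, minus strand) encodes a secreted stress cytokine and moved in opposite directions. It stood at 165, 190.5, 194, 183 and 184 CPM in oxidative wild type and at 24.8, 23.1, 22.3, 17.2 and 25.01 CPM in oxidative Atf4-/-. In glycolytic muscle it stood at 32.5, 30.4, 28.9, 31.2 and 26.1 CPM in wild type and 49.2, 59.2, 53.6, 48.5 and 52.3 CPM in Atf4-/-. The groups did not overlap within either muscle, with an interaction of -3.84 ± 0.112 (edgeR adjusted p = 1.1e-18). Ppp1r15a, the phosphatase subunit that reverses eIF2alpha phosphorylation, fell from 361 ± 3.86 CPM to 108 ± 7.64 CPM (SD, n = 5) in oxidative muscle and rose from 95.98 CPM to 106 CPM in glycolytic muscle. Sqstm1, the autophagy receptor p62, fell from 2350 ± 129 CPM to 807 ± 75.7 CPM in oxidative muscle, whereas the glycolytic values of 789.9 CPM and 846 CPM did not pass. Eif4ebp1, an inhibitor of cap-dependent translation, fell in both muscles, with log2 changes of -2.33 ± 0.0752 in oxidative and -0.87 ± 0.0741 in glycolytic muscle on the log2 scale. Stc2, a secreted glycoprotein, likewise fell in both, with an interaction of -2.74 ± 0.320. Background rates for these counts, and for those of all lists below, are the percentages of all tested genes given above.

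Enzymes of amino acid and one-carbon synthesis mostly fell in both muscles, 16 in oxidative and 12 in glycolytic muscle, and further in oxidative muscle. Of 17 tested members 13 had a negative interaction and 0 a positive one (median -1.53). The median fold change was -3.43 in oxidative and -1.84 in glycolytic muscle on the log2 scale. Asns (ENSMUSG00000029752.12, chromosome 6, 7675169 to 7693254, minus strand), which makes asparagine and whose promoter is printed above, held 316, 336, 374, 332 and 338 CPM in oxidative and 138, 135, 141, 142 and 150.2 CPM in glycolytic wild type. After deletion it held 29.8, 30.1, 30.7, 33.4 and 32.8 CPM in oxidative and 39.97, 36.9, 39.1, 40.5 and 40.4 CPM in glycolytic muscle. Wild type levels were set apart by muscle, and the deleted oxidative libraries lay slightly below the deleted glycolytic ones (interaction -1.59 ± 0.0714, edgeR adjusted p = 9.7e-15). Mthfd2, a mitochondrial folate enzyme, had 140, 142, 156, 141 and 143 CPM in oxidative wild type against 34.8, 42.5, 38.8, 39.7 and 42.6 CPM in glycolytic wild type. Its deleted libraries held 4.03, 4.02, 5.15, 3.31 and 4.12 CPM in oxidative and 4.81, 4.21, 3.49, 4.09 and 5.59 CPM in glycolytic muscle, 2 ranges that overlap. Psat1 of serine synthesis and Shmt2, which transfers a carbon from serine to folate, had interactions of -1.57 ± 0.160 and -1.72 ± 0.131, and their means after deletion were 8.38 CPM and 32.9 CPM in oxidative against 8.33 CPM and 32.6 CPM in glycolytic muscle.

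Amino acid transporters had 9 negative and 1 positive call among 15 tested members (median -1.10). Slc7a11, the cystine importer, fell from 139.8 ± 12.3 CPM to 10.2 ± 2.71 CPM in oxidative and from 53.1 ± 2.13 CPM to 11.5 ± 1.86 CPM in glycolytic muscle. Slc7a1, a carrier of cationic amino acids, fell with log2 changes of -1.93 ± 0.0585 and -0.58 ± 0.0603 in the same order. The neutral amino acid transporter Slc38a2 went in opposite directions, from 486 ± 12.98 CPM to 329.5 ± 31.1 CPM in oxidative muscle and from 283 ± 9.07 CPM to 445 ± 11.98 CPM in glycolytic muscle. The glutamine carrier Slc1a5 fell in oxidative muscle alone by the test (-1.01 in oxidative and -0.07 in glycolytic muscle), with an interaction of -0.94 ± 0.111.

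Cytosolic tRNA synthetases, which load tRNAs with amino acids, had 13 negative and 1 positive call among 20 members (median -0.81). Their mitochondrial counterparts had 1 negative and 1 positive call among 17 members (median 0.09). Gars, the glycine enzyme with a promoter element, went from 375 ± 20.1 CPM to 97.04 ± 8.21 CPM in oxidative and from 160.1 ± 7.25 CPM to 103 ± 5.69 CPM in glycolytic muscle. The asparagine enzyme Nars (-1.16 ± 0.0613) and the serine enzyme Sars (-1.10 ± 0.0721) also fell in both muscles and more in oxidative muscle. Rars, for arginine, fell with a log2 change of -1.37 ± 0.0607 in oxidative muscle and rose with a log2 change of 0.21 ± 0.0609 in glycolytic muscle. Hspa9, the mitochondrial HSP70, was one of 3 negative calls among 12 mitochondrial chaperones and proteases, with an interaction of -1.55 ± 0.0684.

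**Figure D2:**
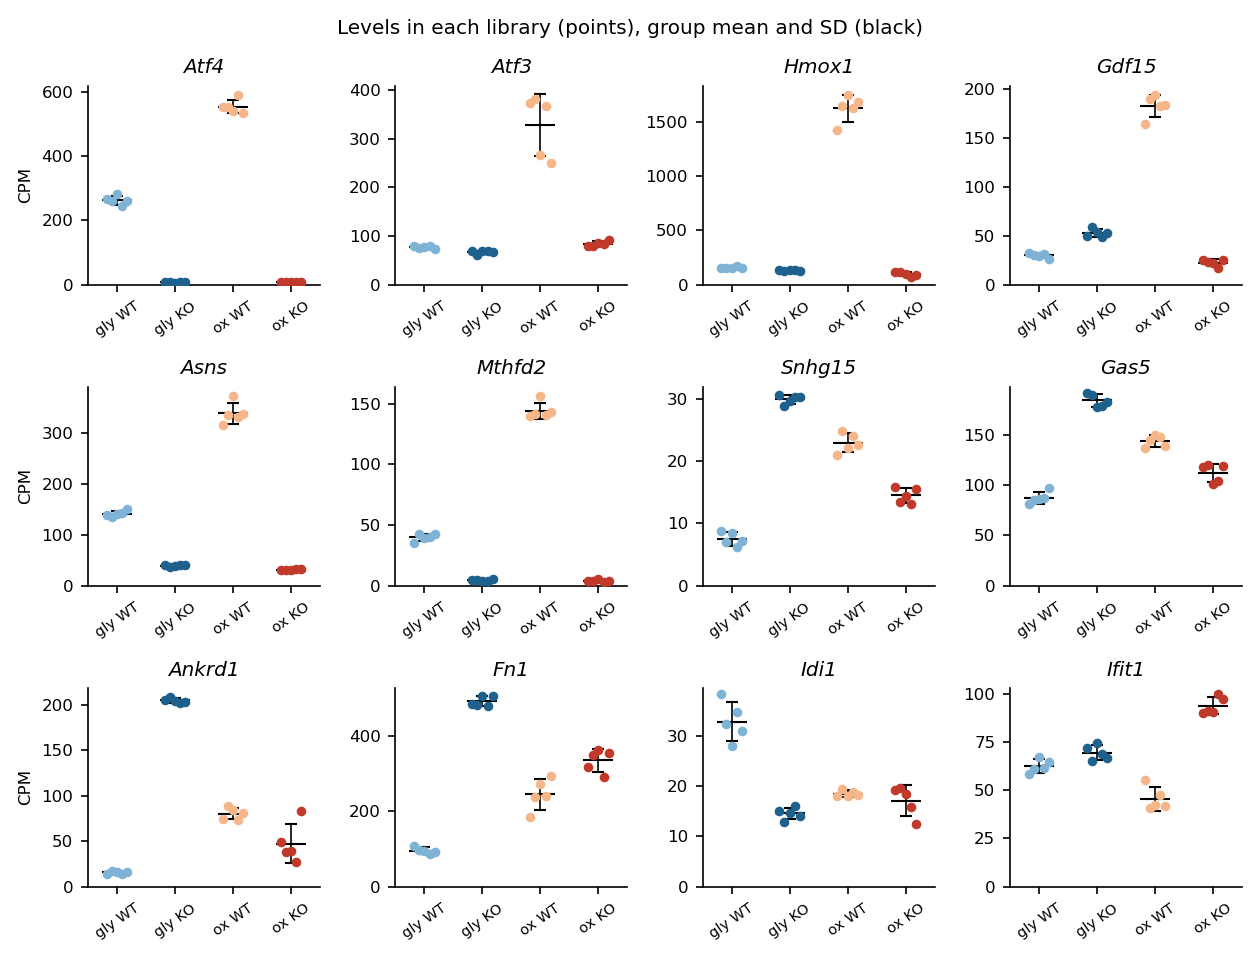
CPM of 12 genes (y axes from 0) in each library of the 4 groups (x axes: gly, glycolytic; ox, oxidative; WT, wild type; KO, Atf4-/-), with the mean and SD of the 5 libraries in black. Oxidative wild type stands highest for Atf3, Hmox1, Gdf15, Asns and Mthfd2, glycolytic Atf4-/- for Snhg15, Gas5, Ankrd1 and Fn1, glycolytic wild type for Idi1 and oxidative Atf4-/- for Ifit1.

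The same interaction can be read as the change of the difference between muscles, which shares its libraries with the effects above. The muscles differed in 4520 of 13971 genes (32.4%) in wild type and in 2573 (18.4%) in Atf4-/-. For the stress regulators the wild type calls were 19 higher and 1 lower of 21 in oxidative muscle (median 1.46), and the Atf4-/- calls 3 higher and 3 lower of 21 in oxidative muscle (median -0.00498). For amino acid and one-carbon enzymes they were 15 higher and 0 lower of 17 in oxidative muscle (median 1.51) in wild type and 0 higher and 1 lower of 17 in oxidative muscle (median 0.0150) in Atf4-/-. Transporters showed 10 higher and 0 lower of 15 in oxidative muscle (median 0.91) in wild type and 2 higher and 1 lower of 15 in oxidative muscle (median -0.0179) in Atf4-/-. Cytosolic tRNA synthetases showed 14 higher and 1 lower of 20 in oxidative muscle (median 0.73) in wild type and 1 higher and 3 lower of 20 in oxidative muscle (median -0.0252) in Atf4-/-. In each of these 4 lists the median was positive in wild type and near 0 after deletion.

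**Figure D3:**
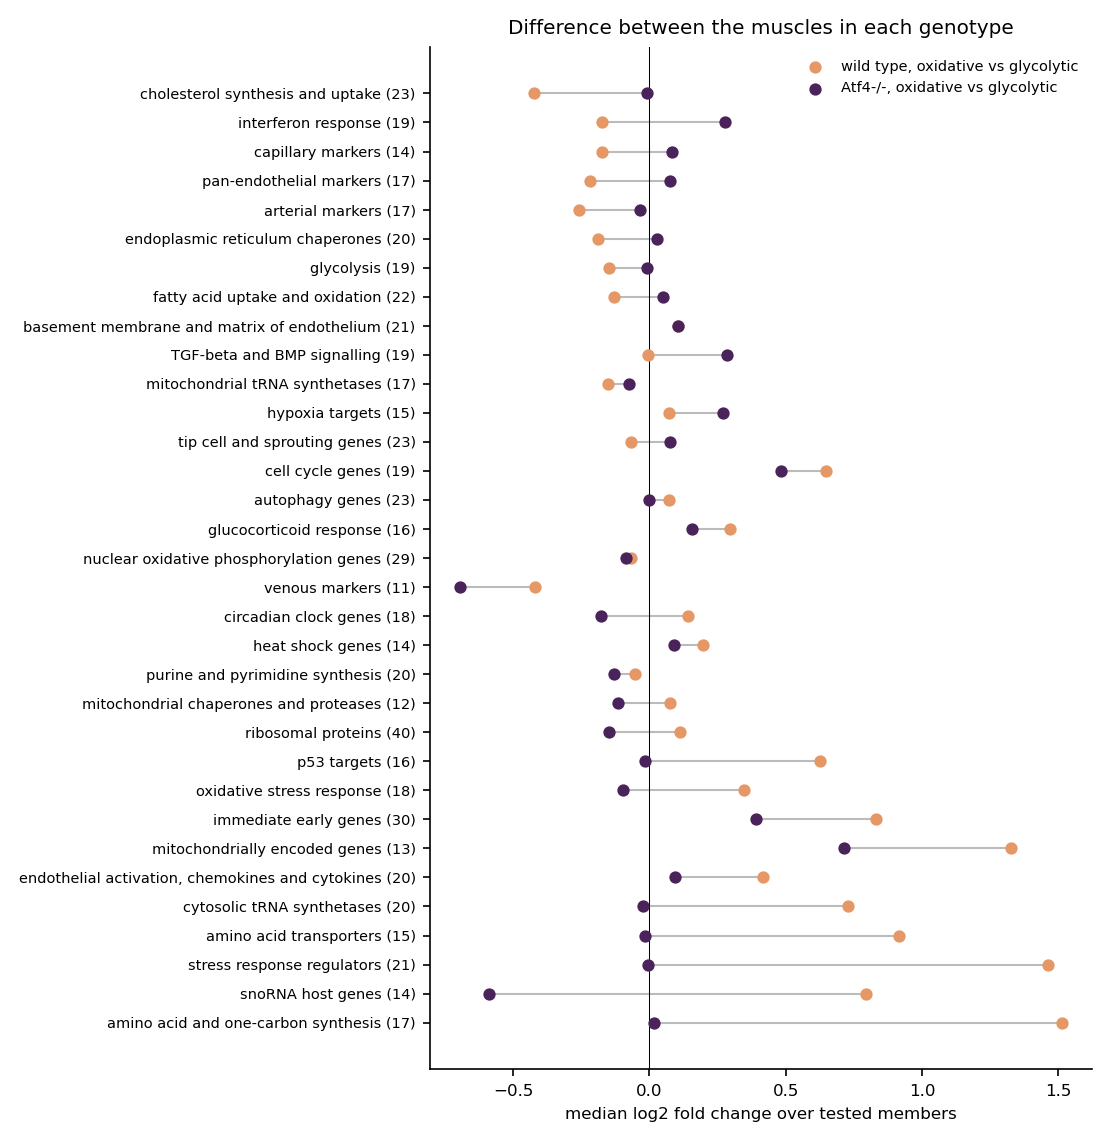
Median log2 fold change of oxidative against glycolytic muscle (x axis) over the tested members of each pathway, process or endothelial list (y axis, number of members in brackets), in wild type (orange) and in Atf4-/- (purple). The 4 Atf4-related lists near the bottom lie between 0.73 and 1.51 in wild type and near 0 in Atf4-/-, while snoRNA host genes cross from positive to negative.

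Genes of the oxidative stress response were called negative in 10 and positive in 0 of 18 tested members (median -0.48). The positive calls were 2 with oxidative Atf4-/- libraries 1, 2 and 3 alone, and 1 with DESeq2, a transcript length offset and 8 of the fits that left out a library. Hmox1 (ENSMUSG00000005413.8, chromosome 8, 75093621 to 75100589, plus strand), which breaks down heme, held 1419, 1640, 1744, 1627 and 1677 CPM in oxidative wild type and 113, 115, 98.5, 72.6 and 83.7 CPM in oxidative Atf4-/-. In glycolytic muscle it held 150.3, 154, 151, 169.8 and 154 CPM in wild type and 129, 128, 130, 132 and 128 CPM in Atf4-/-. Only oxidative wild type stood high, and the interaction was -3.81 ± 0.122 (edgeR adjusted p = 6.2e-18). Txnrd1, a thioredoxin reductase, Gclm of glutathione synthesis and the Nrf2 target Osgin1 fell in both muscles, with interactions of -1.17 ± 0.0744, -1.25 ± 0.0847 and -1.53 ± 0.117. Myeloid transcripts moved along with these genes: the 23-gene list summed to 558 to 683 CPM in oxidative wild type, 53.5 to 120.5 in oxidative Atf4-/-, 25.8 to 31.5 in glycolytic wild type and 19.2 to 21.99 in glycolytic Atf4-/-. Their part in the fall of Hmox1, Gdf15 and the chemokines below was not tested. In such bulk samples fewer cells of a type and less RNA per cell cannot be told apart.

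Immediate early genes, which respond within minutes to stimuli and to tissue handling, had 19 negative and 3 positive calls among 30 members (median -0.52). Fosl1, an AP-1 subunit, fell from 71.6 ± 10.3 CPM to 12.6 ± 3.23 CPM in oxidative muscle and stood at 14.5 CPM and 17.5 CPM in glycolytic muscle. Fosb fell with a log2 change of -1.69 ± 0.0890 in oxidative muscle and the glycolytic value of 0.16 ± 0.107 was not called. Mt1, a metal-binding protein induced by glucocorticoid and zinc, was likewise called in oxidative muscle alone, with an interaction of -2.08 ± 0.106. Chemokines and adhesion molecules of activated endothelium were called negative in 11 and positive in 3 of 20 members. The neutrophil attractants Cxcl1 and Cxcl2 fell from 139 CPM to 26.9 CPM and from 31.01 CPM to 9.30 CPM in oxidative muscle, with interactions of -2.28 ± 0.139 and -2.01 ± 0.211. P-selectin (Selp) fell in both muscles and more in oxidative muscle (-0.75 ± 0.0845), and E-selectin (Sele) fell in oxidative and rose in glycolytic muscle (-1.81 ± 0.233).

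Chaperones of the endoplasmic reticulum leaned the other way. Of 20 members 11 were called positive and 4 negative (median 0.21), with 11 falling in glycolytic muscle. The disulfide isomerases Pdia6 and Pdia4 fell in glycolytic muscle with log2 changes of -0.38 ± 0.0436 and -0.29 ± 0.0406 and rose in oxidative muscle with log2 changes of 0.12 ± 0.0437 and 0.15 ± 0.0407. The stress sensor Atf6 and the cochaperone Dnajb9 were among the negative calls (-0.65 ± 0.0939 and -0.63 ± 0.0754).

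Host genes of small nucleolar RNAs, long RNAs whose introns give the guides for rRNA modification, moved in opposite directions. Of 14 tested members 10 rose in glycolytic muscle, 10 fell in oxidative muscle, and 10 were called negative in the interaction (median -1.37). Snhg15 held 8.80, 6.93, 8.47, 6.16 and 7.08 CPM in glycolytic wild type and 30.6, 28.8, 29.6, 30.2 and 30.3 CPM in glycolytic Atf4-/-. In oxidative muscle it held 21.02, 24.9, 22.1, 24 and 22.5 CPM in wild type and 15.8, 13.5, 14.4, 13.1 and 15.5 CPM in Atf4-/-. No 2 groups overlapped, and the deleted glycolytic libraries were the highest of all (interaction -2.67 ± 0.124, edgeR adjusted p = 1.3e-14). Gas5 rose from 87.1 ± 5.95 CPM to 184 ± 6.39 CPM in glycolytic muscle and fell from 144 ± 5.71 CPM to 112 ± 8.92 CPM in oxidative muscle. Snhg1, Snhg12 and Zfas1 did the same, with interactions of -2.50 ± 0.154, -2.63 ± 0.199 and -2.11 ± 0.131. The spans of these 5 genes overlap annotated small RNAs, and whether reads are shared between them was not tested.

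Further genes with opposite effects include stress and vascular genes. Ifrd1 held 95.4, 112, 102, 97.7 and 116 CPM in glycolytic wild type and 199, 201, 188, 185 and 191 CPM in glycolytic Atf4-/-. In oxidative muscle it held 272, 297, 299, 284 and 256 CPM in wild type and 159, 153, 162, 137 and 159.5 CPM in Atf4-/-. Within each muscle the genotypes did not overlap. Adm, encoding the vasodilator adrenomedullin, rose from 143 ± 9.14 CPM to 271 ± 17.7 CPM in glycolytic and fell from 319 ± 21.5 CPM to 174 ± 19.8 CPM in oxidative muscle. Gadd45b, a stress and growth arrest gene, had an interaction of -2.27 ± 0.170, and galectin 3 (Lgals3), which macrophages also express, one of -2.33 ± 0.107. Errfi1, an inhibitor of EGF receptor signalling, rose with a log2 change of 0.67 ± 0.0475 in glycolytic muscle and fell with a log2 change of -0.13 ± 0.0469 in oxidative muscle.

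A group of genes rose strongly in glycolytic muscle upon deletion. Ankrd1 (ENSMUSG00000024803.9, chromosome 19, 36111961 to 36120099, minus strand), a target of YAP known from stretched cells, held 13.7, 17.4, 15.9, 13.8 and 16.3 CPM in glycolytic wild type and 205, 208, 204, 202 and 203 CPM in glycolytic Atf4-/-. In oxidative muscle it held 74.05, 88.5, 84.3, 73.3 and 80.9 CPM in wild type and 48.7, 38.4, 38.9, 27.5 and 82.8 CPM in Atf4-/-, where library 5 overlaps wild type. Its interaction of -4.45 ± 0.239 (edgeR adjusted p = 2e-13) was the most negative among the genes named here. Fibronectin (Fn1) held 109, 96.7, 93.8, 86.3 and 91.8 CPM in glycolytic wild type and 484, 482, 506, 481 and 506 CPM in glycolytic Atf4-/-. The oxidative values were 186, 237, 273, 239 and 294 CPM in wild type and 318, 350.3, 363, 291 and 355 CPM in Atf4-/-. It rose in both muscles with an overlap of the genotypes in oxidative muscle, and its interaction was -1.92 ± 0.120. Ddah1, which degrades an inhibitor of nitric oxide synthase, rose with log2 changes of 1.55 ± 0.0583 in glycolytic and 0.67 ± 0.0590 in oxidative muscle. Phlda1 rose from 2.32 CPM to 12.3 CPM, Tmem171 from 4.50 CPM to 39.4 CPM and Aloxe3, of the lipoxygenase family, from 2.58 CPM to 20.2 CPM in glycolytic muscle, with no call in oxidative muscle and interactions of -2.65 ± 0.241, -2.96 ± 0.243 and -2.94 ± 0.230.

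Genes of contractile cells took part in this rise unevenly. Smooth muscle actin (Acta2) went from 189 ± 1.75 CPM to 1024 ± 11.98 CPM in glycolytic muscle and from 216 ± 13.6 CPM to 362 ± 83.7 CPM in oxidative muscle. Transgelin (Tagln) went from 130.1 ± 9.52 CPM to 519 ± 15.3 CPM in glycolytic muscle, while the oxidative values of 128 ± 6.19 CPM and 137 ± 47.4 CPM did not pass. The pericyte gene Rgs5 rose in oxidative muscle from 232 CPM to 285 CPM, was not called in glycolytic muscle at 415 CPM and 363 CPM, and had an interaction of 0.49 ± 0.130. The interaction of Rgs5 was 0.27 with oxidative Atf4-/- libraries 1, 2 and 3 alone and 0.80 with libraries 4 and 5 alone. Over the 14 pericyte and smooth muscle markers 6 were called positive and 5 negative. Their summed level was 1056 to 1062 CPM in glycolytic wild type and 2321 to 2389 in glycolytic Atf4-/-, against 720.3 to 849 and 945 to 1429 in oxidative muscle. The part of contractile cells in the rise of Ankrd1 and Fn1 was not tested.

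Targets of p53 rose in glycolytic muscle. There 11 of 16 members rose and 0 fell, while in oxidative muscle 6 rose and 4 fell. The interaction was negative in 10 and positive in 1 (median -0.42). Pmaip1, which encodes the apoptosis inducer Noxa, held 2.75, 1.46, 1.16, 1.59 and 1.25 CPM in glycolytic wild type and 21.8, 25.1, 24.3, 22 and 24.4 CPM in glycolytic Atf4-/-. The oxidative values were 9.29, 9.16, 12.4, 9.74 and 10.8 CPM in wild type and 12.8, 13.8, 12.97, 8.98 and 10.3 CPM in Atf4-/-. The glycolytic groups were far apart and the oxidative ones overlapped (interaction -3.70 ± 0.216, edgeR adjusted p = 1.3e-12). The cell cycle inhibitor Cdkn1a rose from 293 ± 6.70 CPM to 639.6 ± 17.99 CPM in glycolytic muscle and stood at 674 ± 28.9 CPM and 638 ± 150.5 CPM in oxidative muscle. The p53 inhibitor Mdm2, the death receptor Eda2r and the nuclease Aen had interactions of -0.86 ± 0.0828, -1.11 ± 0.0921 and -1.07 ± 0.104. Eda2r lies on chromosome X. Sex-specific RNA differed together with genotype in these groups, and its part in the values of these p53 targets was not tested.

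Cholesterol synthesis and uptake fell in glycolytic muscle. Of 23 tested members 17 fell and 0 rose there, against 3 and 2 in oxidative muscle, and 13 were called positive in the interaction (median 0.45). Idi1, an isomerase of the isoprenoid steps, held 38.3, 32.4, 27.97, 34.9 and 31.03 CPM in glycolytic wild type and 15.01, 12.96, 14.7, 16.1 and 14.2 CPM in glycolytic Atf4-/-. In oxidative muscle it held 18.1, 19.5, 18.03, 18.9 and 18.3 CPM in wild type and 19.3, 19.7, 18.4, 15.8 and 12.4 CPM in Atf4-/-. Glycolytic wild type alone stood high (interaction 1.04 ± 0.149, edgeR adjusted p = 7.8e-06). The farnesyl diphosphate synthase Fdps and the squalene synthase Fdft1 fell with log2 changes of -0.63 ± 0.0856 and -0.70 ± 0.0855 in glycolytic muscle, and neither was called in oxidative muscle.

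Endothelial identity genes had positive interactions. Among 17 markers shared by all endothelium 10 were called positive and 0 negative. In glycolytic muscle 10 fell and 1 rose, and in oxidative muscle 8 rose and 4 fell. Claudin 5 (Cldn5), the tight junction protein, held 1204, 1097, 1143, 1100 and 1071 CPM in glycolytic wild type and 793, 834, 819.9, 842 and 792 CPM in glycolytic Atf4-/-. In oxidative muscle the values were 832, 818, 814, 791 and 879 CPM in wild type and 1288, 1349, 1211, 957 and 903 CPM in Atf4-/-. The genotypes did not overlap within either muscle and moved in opposite directions (interaction 0.93 ± 0.108, edgeR adjusted p = 3.3e-07). Pecam1 had an interaction of 0.55 ± 0.0600 and the receptor Cd93 one of 0.39 ± 0.0680. The transcription factor Sox18 had 0.83 ± 0.160, which was 0.40 with oxidative Atf4-/- libraries 4 and 5 alone.

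Arterial markers were called positive in 7 and negative in 2 of 17 members, capillary markers in 8 and 0 of 14, and venous markers in 2 and 4 of 11. The negative arterial calls numbered 4 with oxidative Atf4-/- libraries 1, 2 and 3 alone and 0 with libraries 4 and 5 alone. With libraries 1, 2 and 3 alone 2 capillary markers were called negative. Hey1, a Notch target of arteries, fell with a log2 change of -0.69 ± 0.0923 in glycolytic muscle and its oxidative value of 0.22 ± 0.0925 was not called. Sema3g, an arterial semaphorin, rose in oxidative muscle alone by the test, with an interaction of 0.93 ± 0.159 that was 0.56 with libraries 4 and 5 alone. The capillary genes Timp4, Cd300lg and Aqp7, a glycerol channel, had interactions of 0.62 ± 0.122, 0.34 ± 0.0700 and 0.37 ± 0.0841, that of Timp4 being 0.29 with libraries 4 and 5 alone. The fatty acid carrier Cd36 rose from 3856 ± 258 CPM to 4938 ± 452 CPM in oxidative muscle and fell from 4058 ± 92.8 CPM to 3415 ± 109 CPM in glycolytic muscle, one of 8 positive calls among 22 genes of fatty acid handling.

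Sprouting genes were split, with 4 positive and 6 negative calls among 23 members, the positive calls being 7 with oxidative Atf4-/- libraries 4 and 5 alone. The Notch ligand Dll4 rose with a log2 change of 0.47 ± 0.0482 in oxidative and fell with a log2 change of -0.20 ± 0.0481 in glycolytic muscle. Placental growth factor (Pgf) rose from 158 ± 8.61 CPM to 329.9 ± 6.22 CPM in glycolytic muscle and stood at 591 ± 33.5 CPM and 509 ± 145 CPM in oxidative muscle. Apelin (Apln), a tip cell peptide, rose in both muscles, with log2 changes of 1.32 ± 0.0998 in glycolytic and 0.49 ± 0.0982 in oxidative muscle. Apln lies on chromosome X. Sex-specific RNA differed together with genotype, and its part in the values of Apln was not tested.

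Interferon response genes rose in oxidative muscle. Of 19 tested members 16 rose and 0 fell there, against 4 and 3 in glycolytic muscle, and 15 were called positive in the interaction (median 0.41). Ifit1, an antiviral RNA-binding protein, held 55.2, 40.5, 42.3, 47.4 and 41.5 CPM in oxidative wild type and 89.99, 90.8, 90.7, 99.9 and 97.2 CPM in oxidative Atf4-/-. In glycolytic muscle it held 58.1, 61.04, 67.3, 61.5 and 64.5 CPM in wild type and 71.6, 64.9, 74.4, 68.9 and 66.6 CPM in Atf4-/-. The oxidative groups stood apart and the glycolytic ones overlapped (interaction 0.90 ± 0.0946, edgeR adjusted p = 6.2e-08). Ifit3, Rtp4 and Oasl2 had interactions of 0.81 ± 0.0758, 0.74 ± 0.0750 and 0.72 ± 0.0934. The GTPases Igtp and Gbp2 and the immunoproteasome subunit Psmb10 rose in oxidative and fell in glycolytic muscle, with 0.83 ± 0.0692, 0.84 ± 0.0749 and 0.62 ± 0.0585. The positive calls numbered 16 with oxidative Atf4-/- libraries 1, 2 and 3 alone and 14 with libraries 4 and 5 alone.

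Signalling by TGF-beta and BMP, which governs endothelial quiescence, had 6 positive and 2 negative calls among 19 members, with 4 negative calls for oxidative Atf4-/- libraries 4 and 5 alone. Id1, a direct BMP target, rose from 597 ± 129.8 CPM to 929.5 ± 42.1 CPM in oxidative and fell from 780.4 ± 41.5 CPM to 636 ± 12.3 CPM in glycolytic muscle. The coreceptor Tgfbr3 did likewise, with an interaction of 1.21 ± 0.0925. Smad1, which carries the BMP signal, and the ligand Bmp6 fell in glycolytic muscle with log2 changes of -0.51 ± 0.0558 and -0.67 ± 0.0681 and were not called in oxidative muscle. Tram1, a membrane protein of the translocon, had opposite effects as well (0.34 in oxidative and -0.34 in glycolytic muscle). Prom1 rose in both muscles and more in oxidative muscle (0.63 ± 0.0779).

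Some of the genes with the most positive interactions are secreted proteins. Adamts4, a proteoglycan-cleaving protease, fell from 13.6 ± 1.54 CPM to 3.74 ± 0.883 CPM in glycolytic muscle, with 12.96 ± 1.81 CPM and 17.8 ± 7.05 CPM in oxidative muscle, an interaction of 2.30 ± 0.311 that was 1.51 with libraries 4 and 5 alone. Osteopontin (Spp1) fell in both muscles, with log2 changes of -3.005 ± 0.206 in glycolytic and -1.003 ± 0.155 in oxidative muscle. Neuromedin B (Nmb) and Clca2 rose in oxidative and fell in glycolytic muscle, with interactions of 1.83 ± 0.231 and 1.79 ± 0.194. Exosc6 and Gbp2b, also among the most positive, had a group at or near 0 counts and are not described.

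All 13 tested mitochondrially encoded genes on the list had a negative interaction (median -0.60), in parallel with the mitochondrial share of the libraries given above. They fell in oxidative muscle and none was called in glycolytic muscle. The part of that share in these values was not tested. Among them mt-Co2, a cytochrome oxidase subunit, went from 8152 ± 969 CPM to 5093 ± 954 CPM in oxidative muscle and from 3478 ± 139.9 CPM to 3301 ± 26.9 CPM in glycolytic muscle. The complex I subunits mt-Nd4l and mt-Nd5 had interactions of -0.96 ± 0.177 and -0.63 ± 0.129. Nuclear genes of oxidative phosphorylation had 2 positive and 2 negative calls among 29 members. With libraries 4 and 5 alone the negative calls numbered 5.

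Ribosomal protein genes were called negative in 24 and positive in 0 of 40 members, at a small size (median -0.23). Rps18 fell with a log2 change of -0.44 ± 0.0379 in oxidative and rose with a log2 change of 0.11 ± 0.0378 in glycolytic muscle, and the changes of Rpl30 were -0.36 ± 0.0432 and 0.20 ± 0.0431. Both have many processed copies in the genome, so their counts are uncertain. Nucleotide synthesis genes had 5 negative and 0 positive calls among 20 members. The CTP synthase Ctps rose from 85.5 ± 2.87 CPM to 167 ± 8.97 CPM in glycolytic muscle and was not called in oxidative muscle. Adss, of adenine nucleotide synthesis, fell from 102 ± 3.53 CPM to 62.5 ± 3.21 CPM in oxidative muscle and rose from 59.3 CPM to 66.5 CPM in glycolytic muscle.

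The remaining lists held calls in both directions, beside 10.1% positive and 12.5% negative calls over all tested genes. Glycolysis had 6 positive and 3 negative calls among 19, hypoxia targets 5 and 3 among 15, and genes of basement membrane and matrix 5 and 3 among 21. The glucocorticoid response had 1 and 5 among 16, and autophagy 2 and 5 among 23. Heat shock genes had 1 and 2 calls among 14 and fell in both muscles (11 in oxidative and 10 in glycolytic muscle). Cell cycle genes had 1 and 1 among 19. Circadian clock genes had 1 and 2 among 18, but with oxidative Atf4-/- libraries 1, 2 and 3 alone 12 were called negative, and with libraries 4 and 5 alone 5 were called positive. With libraries 1, 2 and 3 alone 5 glucocorticoid genes and 8 matrix genes were called positive, and with libraries 4 and 5 alone 4 heat shock genes were called negative.

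**Figure D4:**
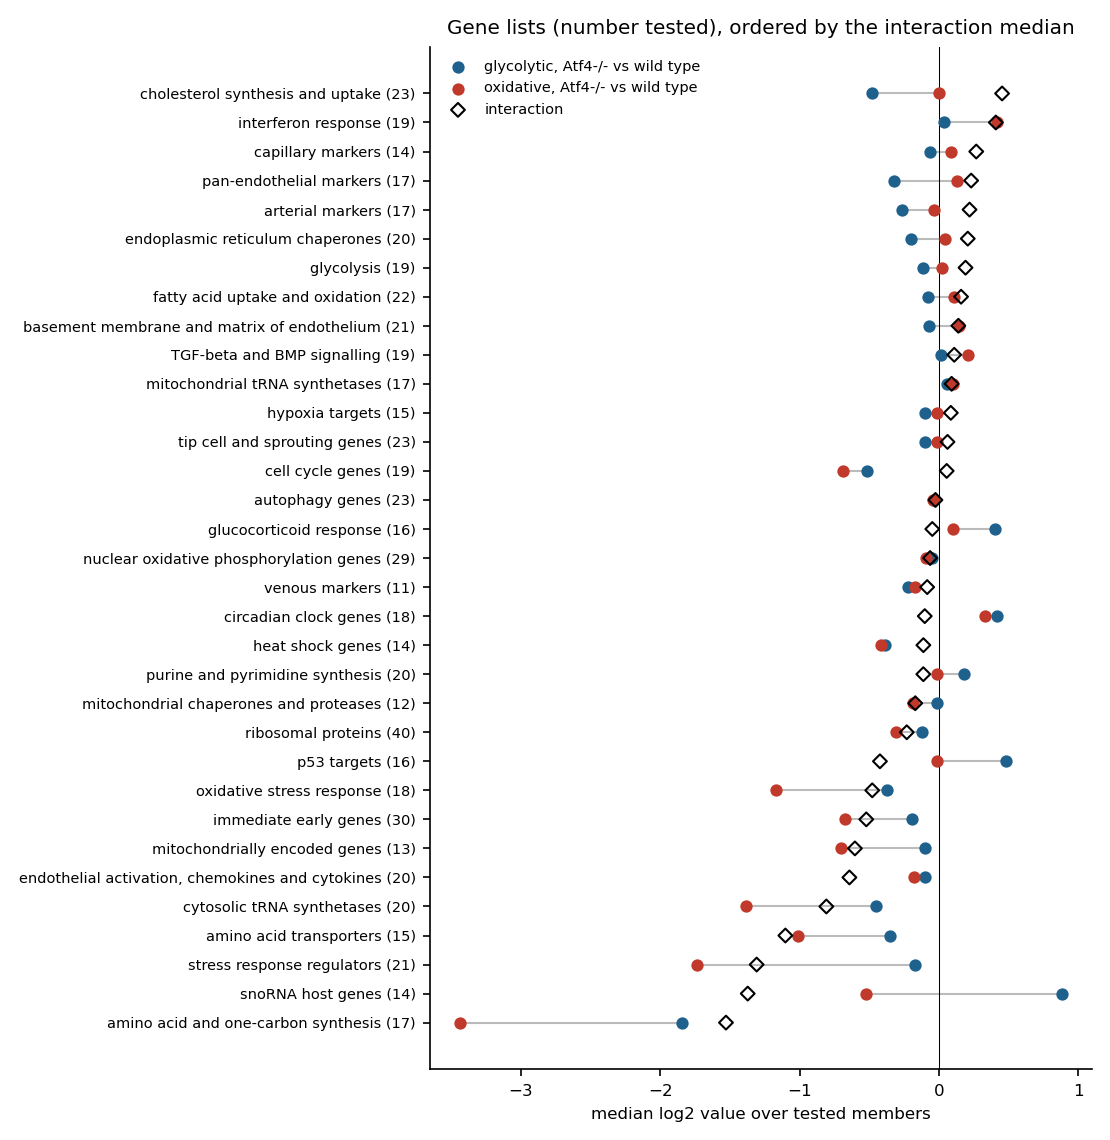
Median log2 value over the tested members of each pathway, process or endothelial list (number in brackets; lists of other cell types and of sex-specific genes are not plotted) for the genotype effect in glycolytic (blue) and oxidative muscle (red) and for the interaction (open diamonds). Among the lists plotted, amino acid and one-carbon synthesis has the most negative interaction median, -1.53, and cholesterol synthesis and uptake the most positive, 0.45, while snoRNA host genes lie on opposite sides of 0 in the 2 muscles.

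Levels of markers of other cells differed between groups. Over all tested genes 10.1% were called positive and 12.5% negative in the interaction. The counts for fibroblasts and for slow, fast and lymphatic markers below are near those shares. Fibroblast markers summed to 101 to 109 CPM in glycolytic wild type, 251 to 264 in glycolytic Atf4-/-, 223 to 464 in oxidative wild type and 107 to 670.3 in oxidative Atf4-/-, where libraries 4 and 5 stood highest. Of 13 fibroblast markers 1 was called negative. That count was 6 without oxidative Atf4-/- library 5, 4 without library 4 and 9 without both. Muscle fibre markers summed to 139 to 144 and 236 to 240.4 CPM in glycolytic wild type and Atf4-/-, and to 194 to 320.3 and 291 to 409.5 in the oxidative groups, with 4 of 18 called negative, 1 with libraries 4 and 5 alone, and 1 positive. Slow and fast fibre genes each had 1 negative call among 9 and 10 members. Myeloid markers were called negative in 10 of 20, and 15 with libraries 4 and 5 alone, and S100a8 and S100a9 were below 0.5 CPM in each library. Schwann cell markers had 5 negative calls among 7, 2 with libraries 4 and 5 alone and 2 or 3 without any 1 of 9 libraries. Satellite cell markers had 1 positive and 2 negative calls among 7, and lymphatic markers 1 and 1 among 7. Erythroid markers summed to 3789 to 4011 CPM in glycolytic wild type and 2268 to 2491 in glycolytic Atf4-/-. The oxidative sums were 4401 to 6752 CPM in wild type and 2506 to 4277 in Atf4-/-. All 5 tested erythroid markers fell in each muscle. None was called in the interaction, but 4 were positive with libraries 4 and 5 alone. The lymphocyte and adipocyte lists had 1 tested gene each, called negative and positive, and 9 of the 11 lymphocyte markers were below 0.5 CPM in each library. The 4 Y-linked genes were called positive, but 0 of them with limma-voom or with libraries 4 and 5 alone, where 1 was called negative. Neither of the 2 X-inactivation transcripts was called. The part of these cells in the endothelial results was not tested.

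**Figure D5:**
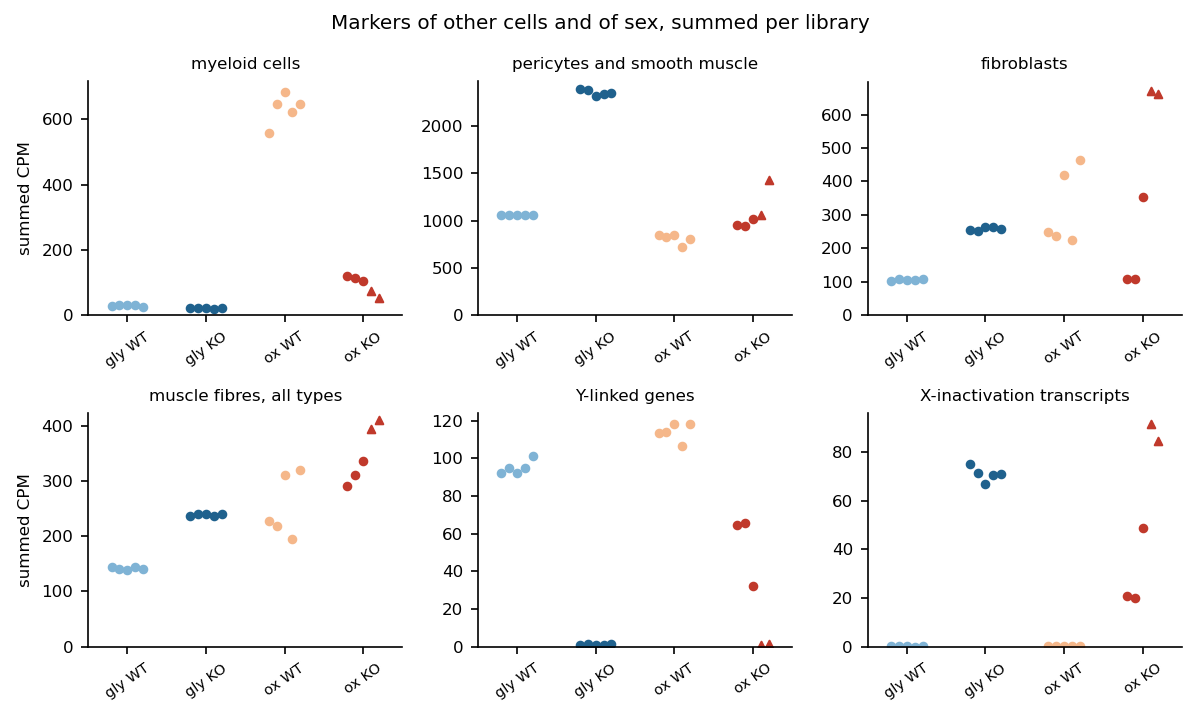
Summed CPM (y axes from 0) of marker lists in each library of the 4 groups (x axes), with oxidative Atf4-/- libraries 4 and 5 as triangles. Myeloid markers are highest in oxidative wild type, pericyte and smooth muscle markers in glycolytic Atf4-/-, and fibroblast markers and X-inactivation transcripts in oxidative Atf4-/- libraries 4 and 5.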

How the data were processed

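The authors deposited, for each of the 20 libraries, estimated counts and TPM (length-scaled shares) per transcript, per the file headers. The submitters' processing notes name kallisto and DESeq2 without versions, and a human build, GRCh38.p13, although the transcripts are mouse. TPM were not used here. Libraries were stranded and poly(A)-selected, single-end, per the labels' protocols, while no source used here gives the strand setting of the quantification.

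Of 129439 transcripts 128643 were matched by ID to GENCODE M21 (GRCm38), and their deposited estimated counts were summed over 42374 genes and rounded to whole numbers. The unmatched rest held at most 0.221% of the counts of a library, and a single gene, CT010467.1, held 8.89 to 12.18%. Genes were kept by filterByExpr, scaled by TMM, and fitted in 1 model of the 4 groups by edgeR 4.0.16 (quasi-likelihood test, R 4.3.3), with adjustment over 13971 genes at a threshold of 0.05. The standard error is the log2 value over the square root of F. Depth limits precision for genes of few counts. The script was tested on simulated data. Averaged over genes, pairs of libraries within a group differed by more than sampling noise (chi-square per degree of freedom 2.64 to 27.6). Abundant genes can dominate this mean, and some sums were very close, such as 1056 to 1062 CPM for pericyte and smooth muscle markers in glycolytic wild type. The measure therefore does not show whether the libraries are separate animals or technical repeats.

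The members and lists were chosen with earlier results of these data known. Lists share members, among them Cd36, Sele, Cdkn1a, Atf3 and Slc7a11, so the same call can count in several lists and their counts are not independent. Genes were named by rule: Atf4 and Atf3, the 12 most negative and 12 most positive called interactions above a mean of 4 CPM, those with the smallest adjusted p per class of effect (5 for opposite classes, 3 for others) and up to 4 per list. Not every gene admitted by the rule is described. Alternatives were DESeq2, limma-voom, other scalings and filters, a length offset, a replicate block, autosomal genes only, each library left out, and subsets of oxidative Atf4-/- libraries.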

Additional observations from a re-analysis of the deposited data

Results flagged for a closer look

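For the genes named in the report the 2 genotype effects differed by the test of the difference itself, the interaction of edgeR's quasi-likelihood fit with Benjamini-Hochberg adjustment over all 13971 genes tested, and all 99 passed the adjusted p threshold of 0.05. They were named by a rule that prefers small adjusted p-values and large interactions, so this count describes the choice of genes. The value after each gene is its interaction on the log2 scale. Falls called in both, larger in glycolytic muscle, were those of Aqp7 (0.37), Cd93 (0.39) and Spp1 (2.002). Falls called in both muscles, larger in oxidative muscle, were those of Hmox1 (-3.81), Stc2 (-2.74), Mthfd2 (-1.92), Shmt2 (-1.72), Asns (-1.59), Psat1 (-1.57), Slc7a11 (-1.56), Hspa9 (-1.55), Osgin1 (-1.53), Eif4ebp1 (-1.46), Slc7a1 (-1.35), Gars (-1.31), Gclm (-1.25), Txnrd1 (-1.17), Nars (-1.16), Sars (-1.10), Atf4 (-0.89) and Selp (-0.75). A fall called in oxidative muscle alone went with negative interaction values for Fosl1 (-2.77), Cxcl1 (-2.28), Mt1 (-2.08), Cxcl2 (-2.01), Fosb (-1.85), Atf3 (-1.76), Sqstm1 (-1.64), mt-Nd4l (-0.96), Slc1a5 (-0.94), Atf6 (-0.65), mt-Nd5 (-0.63) and mt-Co2 (-0.60). In the genes that fell in oxidative and rose in glycolytic muscle, the interaction was negative for Ankrd1 (-4.45), Gdf15 (-3.84), Snhg15 (-2.67), Snhg12 (-2.63), Snhg1 (-2.50), Lgals3 (-2.33), Gadd45b (-2.27), Zfas1 (-2.11), Ppp1r15a (-1.89), Sele (-1.81), Adm (-1.80), Ifrd1 (-1.75), Rars (-1.58), Gas5 (-1.44), Slc38a2 (-1.22), Eda2r (-1.11), Adss (-0.87), Mdm2 (-0.86), Errfi1 (-0.81), Dnajb9 (-0.63), Rps18 (-0.56) and Rpl30 (-0.56). Where the fall was called in glycolytic muscle alone, the interaction was positive for Cd300lg (0.34), Bmp6 (0.63), Smad1 (0.64), Fdft1 (0.68), Fdps (0.77), Hey1 (0.92), Idi1 (1.04) and Adamts4 (2.30). Where the rise was called in glycolytic muscle alone, it was negative for Pmaip1 (-3.70), Tmem171 (-2.96), Aloxe3 (-2.94), Phlda1 (-2.65), Tagln (-1.89), Pgf (-1.28), Cdkn1a (-1.21), Ctps (-1.09) and Aen (-1.07). Genes that rose in oxidative and fell in glycolytic muscle had a positive interaction, seen for Pdia4 (0.44), Pdia6 (0.50), Pecam1 (0.55), Cd36 (0.61), Psmb10 (0.62), Dll4 (0.67), Tram1 (0.68), Rtp4 (0.74), Igtp (0.83), Sox18 (0.83), Gbp2 (0.84), Cldn5 (0.93), Id1 (0.93), Tgfbr3 (1.21), Clca2 (1.79) and Nmb (1.83). A rise called in oxidative muscle alone went with Rgs5 (0.49), Oasl2 (0.72), Ifit1 (0.90) and Sema3g (0.93). Rises called in both, larger in glycolytic muscle, were those of Fn1 (-1.92), Acta2 (-1.69), Ddah1 (-0.88) and Apln (-0.83). Rises called in both, larger in oxidative muscle, were those of Timp4 (0.62), Prom1 (0.63) and Ifit3 (0.81).

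Single libraries stood apart from the other 4 of their group in 18 of the 396 sets of 5 CPM values examined, which is near the 1 in 20 that chance gives. The measure was the gap to the nearest library over the range of the group, with a limit of 0.71. In glycolytic Atf4-/- these were Cd300lg in library 2 (824 CPM against 791 to 800.2 CPM), Psmb10 in library 4 (95.98 CPM against 102 to 103 CPM), Sars in library 2 (106 CPM against 86.9 to 90.4 CPM), Tmem171 in library 4 (35.5 CPM against 39.6 to 41.03 CPM), mt-Nd5 in library 1 (1288 CPM against 1170 to 1200 CPM). In oxidative Atf4-/- these were Ddah1 in library 4 (60.2 CPM against 74.2 to 79.8 CPM), Dnajb9 in library 4 (81.4 CPM against 71.4 to 73.8 CPM), Gars in library 4 (82.7 CPM against 98.02 to 102 CPM), Rpl30 in library 1 (464 CPM against 421 to 432 CPM), Tagln in library 5 (219 CPM against 96.8 to 129 CPM). In oxidative wild type these were Errfi1 in library 3 (116 CPM against 108 to 109 CPM), Fdft1 in library 5 (19.3 CPM against 24.9 to 27.1 CPM), Mthfd2 in library 3 (156 CPM against 140 to 143 CPM), Smad1 in library 3 (78.6 CPM against 68.6 to 70.1 CPM). In glycolytic wild type these were Fosb in library 3 (17.9 CPM against 14.1 to 15.1 CPM), Hmox1 in library 4 (169.8 CPM against 150.3 to 154 CPM), Mt1 in library 1 (82.9 CPM against 77.1 to 78.4 CPM), Pmaip1 in library 1 (2.75 CPM against 1.16 to 1.59 CPM). The causes were not tested.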

How the results depend on the processing

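Counts of called genes were recomputed under each alternative. The interaction was called for 3270 genes by DESeq2, 3198 by limma-voom, 3167 with DESeq2's size factors in edgeR, 3155 with a minimum of 1 CPM, 2965 without a filter, 3044 for autosomal genes alone and 2613 with a transcript length offset. Leaving out each library in turn gave 2927 to 3218 calls, with 1264 to 1545 higher and 1520 to 1772 lower. Calls of the genotype effect then ranged from 4058 to 4507 in oxidative and from 3553 to 4170 in glycolytic muscle, and genes with opposite effects from 444 to 519, of which 257 to 337 fell and 151 to 207 rose in oxidative muscle. Without glycolytic Atf4-/- library 3 the split was 1545 higher against 1520 lower. With oxidative Atf4-/- libraries 1, 2 and 3 alone, 3496 genes were called and 285 in place of 189 rose in oxidative and fell in glycolytic muscle. Of 250 recomputed counts this count of 285 was the 1 beyond 1.5 times the main value, and the cause was not tested. With libraries 4 and 5 alone 3159 genes were called. All 99 genes named here kept their direction and their call under each alternative that tested them. The rule that named them prefers small adjusted p-values and large interactions, so this does not describe the other called genes. Of all 3163 called genes 2373 remained called with the length offset and 2422 with libraries 4 and 5 alone. Of 94 list counts 22 moved by over 1.5 times with libraries 4 and 5 alone, 14 with libraries 1, 2 and 3 alone and 17 with the length offset. When single libraries were left out, the list counts that moved so far were ones of at most 5 genes in the full fit, and the fibroblast count reached 6. The replicate block gave 3 negative fibroblast calls in place of 1 and 1 positive call among oxidative stress genes in place of 0.

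A fit with the replicate number as a block called 3064 genes, 1343 higher and 1721 lower, of which 2979 were called without it, and 495 genes had opposite effects. Same-numbered libraries did not deviate together: their correlations ranged from -0.243 to 0.142 and 3 of 20 libraries correlated best with their own number. What the numbers stand for is not given, so these values do not decide whether libraries of both muscles came from the same animals.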
